A study of Mus musculus with 2 samples.

Results

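The genes described here are 8 members of the TGF-beta and activin pathway, found by symbol among the 55357 genes of both count matrices: the ligand genes Tgfb1, Tgfb2, Tgfb3 and Inhba, the receptor genes Tgfbr1 and Tgfbr2, and the inhibitor genes Fst and Smad7. All 8 were present in both matrices. They were measured by droplet single-cell RNA sequencing in 4T1 tumours, a mouse triple-negative mammary carcinoma line grown in BALB/c mice. In the AptCD4-LNT group, tumour-bearing mice received AptCD4-LNT at 5000000, 4000000 and 3000000 cells in turn, 3 days apart, and in the Untreated group they received PBS. Tumours were taken at day 9, and 3 tumours of a group were mixed into 1 library, so there is 1 library per group and differences have no replicate check. No test between groups could be made, and all intervals are exact 95% intervals that cover counting error only.

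TGF-beta is secreted in a latent complex, and once released it joins the receptors encoded by Tgfbr2 and Tgfbr1, which pass the signal to the nucleus through SMAD proteins. Activin A, a dimer of the chain encoded by Inhba, reaches the same SMAD proteins through its own receptors and is bound and blocked by follistatin, the product of Fst. Smad7 is induced by the pathway and shuts its receptors down. In tumours the pathway is known for driving matrix production by fibroblasts and for restraining T cells.

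The AptCD4-LNT library held 8931 cell barcodes and 98968100 UMIs (unique molecular identifiers, 1 per captured RNA molecule), and the Untreated library held 20040 barcodes and 131295224 UMIs. Median depth was 8612 UMIs per barcode in the AptCD4-LNT library and 4640.5 in the Untreated library, and the libraries shared 42 barcodes. After filtering, 8627 AptCD4-LNT and 18216 Untreated cells fell into 24 clusters, and 7 classes that reached 50 cells in both libraries are compared: epithelial-like (3774 AptCD4-LNT and 9585 Untreated cells), fibroblast-like (802 and 527), pericyte-like (51 and 96), endothelial-like (58 and 160), monocyte and macrophage-like (1507 and 3798), neutrophil-like (2129 and 2973) and T and NK-like (154 and 579) cells. Each class carried at least 3 of its own markers at 20 CPM (UMIs per 1000000 UMIs of the class) or more in each library. A cluster with skeletal muscle genes was left unnamed, because its AptCD4-LNT cells did not reach 3 muscle markers. Levels are given in CPM, and a ratio sets AptCD4-LNT over Untreated.

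The promoters of 2 genes are shown, those with the widest differences described here: Inhba within myeloid cells and Tgfb2 among the TGF-beta ligands over whole libraries. Each is the 250 bases before the annotated start from RefSeq on GRCm38.p6, written 5′ to 3′ on the gene's strand, with TATAAA in capitals.
Inhba, chr13:16011601-16011850, + strand: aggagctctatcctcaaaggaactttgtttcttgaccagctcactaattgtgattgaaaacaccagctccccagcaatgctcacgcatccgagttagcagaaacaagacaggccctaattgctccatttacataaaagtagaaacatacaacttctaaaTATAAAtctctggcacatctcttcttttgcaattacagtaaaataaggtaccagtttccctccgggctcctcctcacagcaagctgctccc
Tgfb2, chr1:186705990-186706239, - strand: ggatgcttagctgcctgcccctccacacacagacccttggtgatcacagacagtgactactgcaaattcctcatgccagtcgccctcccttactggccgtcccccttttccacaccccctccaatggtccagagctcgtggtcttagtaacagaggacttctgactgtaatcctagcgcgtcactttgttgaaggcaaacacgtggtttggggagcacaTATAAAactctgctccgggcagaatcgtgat
The letters TATAAA, the core of the TATA box, begin at position -91 in Inhba and -31 in Tgfb2, counted from the start site. On either strand they occur in 12.4% of the 32851 promoters of this length. Promoters of 5 of the 8 genes were in the table, and those of Tgfb1, Tgfbr1 and Tgfbr2 held no TATAAA. The AP-1 letters TGANTCA, held by 6.75% of all promoters on either strand, and the cAMP response element letters TGACGTCA, held by 1.55%, were in none of these windows.

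Over whole libraries, Fst, Tgfb2, Tgfbr2 and Smad7 were at least 1.5-fold higher in the AptCD4-LNT library and no member was 1.5-fold lower in CPM of all UMIs. These are 4 of 8 members, against 14.9% of the 19773 genes with at least 20 UMIs that were 1.5-fold higher and 6.95% that were 1.5-fold lower. Fst stood at 44.5 CPM in the AptCD4-LNT library and 11.6 CPM in the Untreated library, a ratio of 3.83 (3.60 to 4.08). Tgfb2 stood at 20.3 CPM in the AptCD4-LNT library and 7.64 CPM in the Untreated library, a ratio of 2.65 (2.45 to 2.88). Tgfbr2, the ligand-binding receptor, stood at 144 CPM in the AptCD4-LNT library and 72.0 CPM in the Untreated library, a ratio between 1.95 and 2.06. Of the 7 compared classes, mesenchymal ones had the highest levels of all 3 of these genes. The fibroblast-like share of all UMIs was 11.6% in the AptCD4-LNT library and 3.91% in the Untreated library. With the class shares of the Untreated library applied to both, the log2 ratio was 0.60 for Fst in place of 1.94, 0.59 for Tgfb2 in place of 1.41 and 0.41 for Tgfbr2. Smad7 stood at 231 CPM in the AptCD4-LNT library and 154 CPM in the Untreated library, a log2 ratio of 0.59 (0.56 to 0.61) that only just reached 1.5-fold and fell short of it when centred on the median ratio (0.51) and with each cell weighted equally (0.33). The other members differed by less than 1.5-fold: Tgfb1 had 76.1 CPM in the AptCD4-LNT library and 72.6 in the Untreated library, Tgfb3 31.2 and 25.7, Tgfbr1 62.0 and 49.4, and Inhba 149 and 147. The median log2 ratio was 0.46 over the 8 members and 0.08 over all genes with at least 20 UMIs.

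**Figure D1:**
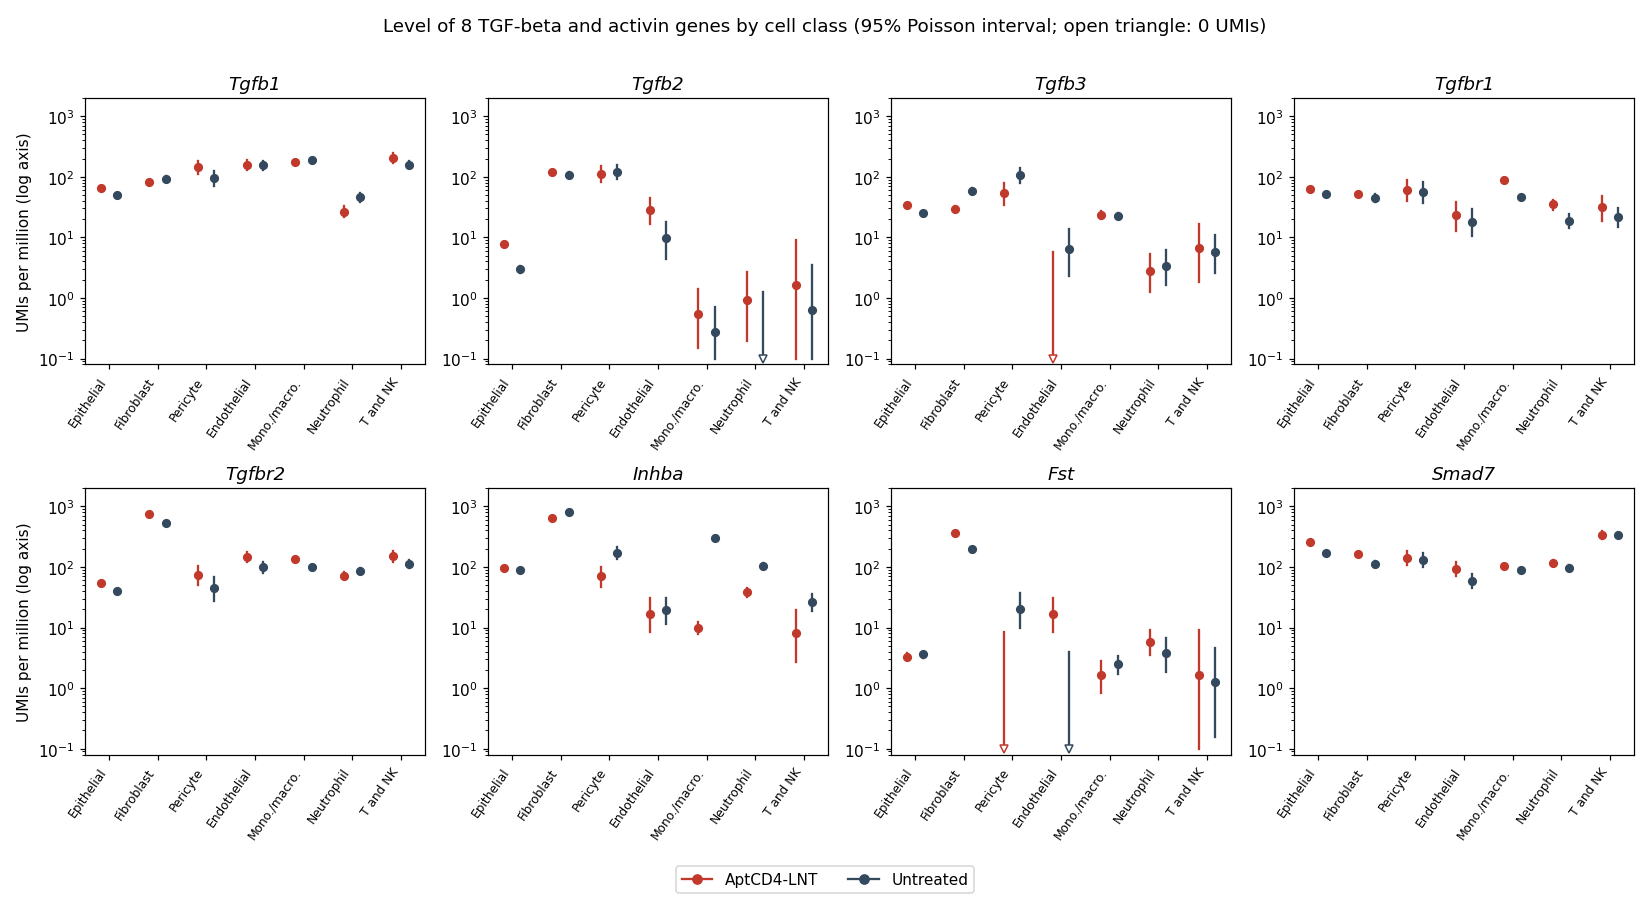
Level of each of the 8 genes in 7 cell classes, in CPM on a log axis, for the AptCD4-LNT library (red, left) and the Untreated library (dark, right). Points are library values, bars are 95% Poisson intervals cut off at the lower edge of the axis, and open triangles mark 0 UMIs; Inhba in monocyte and macrophage-like cells shows the widest gap, 9.83 against 302 CPM.

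Inhba, which encodes the activin A chain, was close to level between whole libraries in CPM, with a log2 ratio of 0.02, but came from different cells. With each cell weighted equally the whole-library log2 ratio was -0.79, past 1.5-fold lower, and with the class shares of the Untreated library applied to both it was -0.53. Monocyte and macrophage-like cells had 73 Inhba UMIs and 9.83 CPM (7.70 to 12.4) in the AptCD4-LNT library, against 4427 UMIs and 302 CPM (293 to 311) in the Untreated library. That is 30.7-fold lower (24.4 to 39.3) in the AptCD4-LNT library. These cells held 0.52% of the library's Inhba UMIs in the AptCD4-LNT library and 26.9% in the Untreated library, while their share of all UMIs was 7.81% and 13.1%. Fibroblast-like cells held 49.9% of Inhba UMIs in the AptCD4-LNT library and 21.5% in the Untreated library. Their share of all UMIs was 11.6% and 3.91%, and their Inhba level was 642 and 807 CPM. Epithelial-like cells, the class that would hold the carcinoma cells, held 48.2% in the AptCD4-LNT library and 47.0% in the Untreated library, at 95.8 CPM and 90.2 CPM. The activin chain was therefore shared between epithelial-like and fibroblast-like cells in the AptCD4-LNT library, and among epithelial-like, myeloid and fibroblast-like cells in the Untreated library.

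After each cell was thinned to 1000 UMIs, 7 of 1322 AptCD4-LNT monocyte and macrophage-like cells (0.530%, 0.213% to 1.09%) had an Inhba UMI, against 582 of 3484 Untreated cells (16.7%, 15.48% to 17.99%). Without thinning the shares were 3.12% in AptCD4-LNT cells and 27.4% in Untreated cells, at median depths of 3892 and 2985.5 UMIs. T and NK-like cells served as background, at median depths of 2493 UMIs in the AptCD4-LNT library and 1665 in the Untreated library. Their thinned shares were 1 of 146 AptCD4-LNT cells (0.685%, 0.0173% to 3.76%) and 9 of 423 Untreated cells (2.13%, 0.977% to 4.00%). The AptCD4-LNT monocyte and macrophage-like share lay within the wide interval of its background, which rests on 1 cell and cannot place it. The Untreated share lay above the interval of its background. In the Untreated library, the tenth of these cells with most Inhba held 77.9% of the class's Inhba UMIs.

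The 5 monocyte and macrophage-like clusters differed between the libraries in size. Cluster 10, led by Ms4a7, Cd72 and Cx3cr1, drew 90.4% of its cells from the AptCD4-LNT library. Cluster 15, led by Mmp12, Ccl24 and Arg1, and cluster 23, with Pf4 and C1qa, drew 97.1% and 98.2% of theirs from the Untreated library. Inhba was highest in cluster 15, with 58.9 CPM in its 28 AptCD4-LNT cells and 912 CPM in its 953 Untreated cells. Only 2 of those AptCD4-LNT cells had an Inhba UMI, against 528 of the Untreated cells. In cluster 23 only 1 AptCD4-LNT cell had an Inhba UMI. In the clusters that both libraries filled, the Ccr2 and Plac8 cluster 13 had 18.2 CPM in AptCD4-LNT cells and 171 CPM in Untreated cells, and the Mrc1 and Lyve1 cluster 16 had 9.68 CPM and 76.9 CPM. The cluster 16 values rest on few cells: 8 AptCD4-LNT cells and 13 Untreated cells had an Inhba UMI. The highest Untreated cell there held 15 Inhba UMIs. Without the clusters of mostly 1 library, a setting chosen after seeing the data, the log2 ratio of Inhba in the class was -3.29 in place of -4.94.

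**Figure D2:**
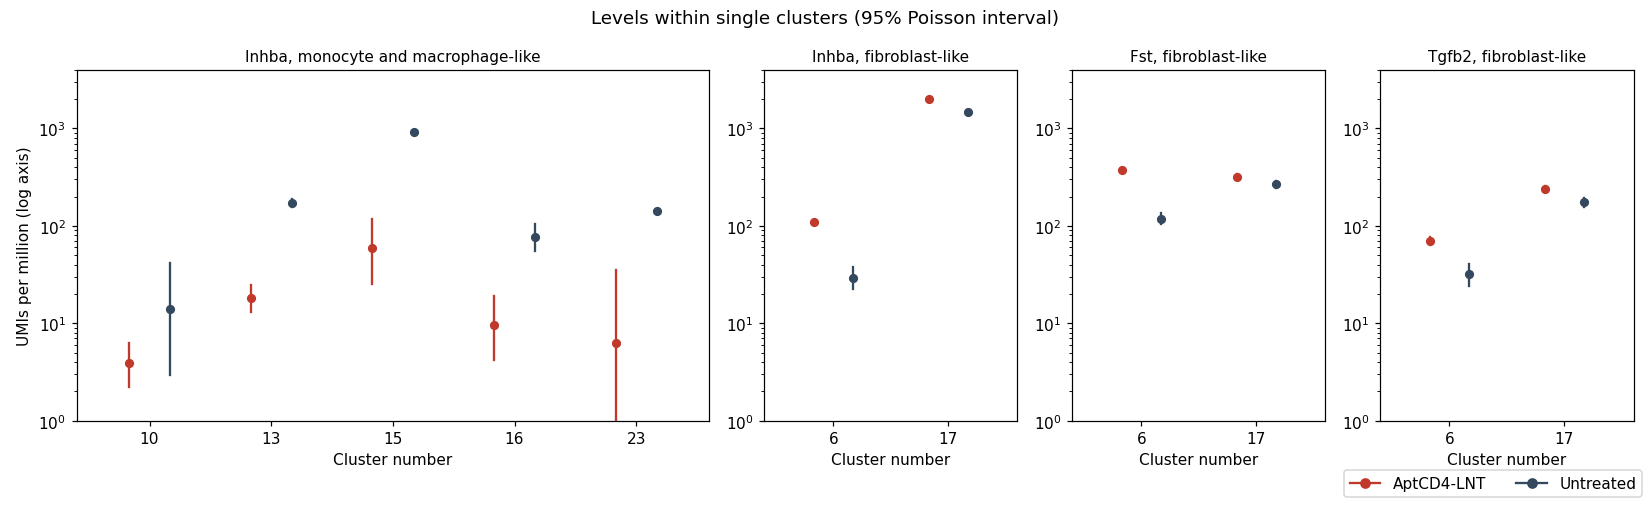
Inhba in the 5 monocyte and macrophage-like clusters, and Inhba, Fst and Tgfb2 in the 2 fibroblast-like clusters, in CPM on a log axis; AptCD4-LNT cells are red and left, Untreated cells dark and right, and bars are 95% Poisson intervals. Inhba is lower in AptCD4-LNT cells in all 5 myeloid clusters, with overlapping intervals in cluster 10, and higher in both fibroblast-like clusters. The AptCD4-LNT values of clusters 15 and 23 rest on 2 cells and 1 cell with an Inhba UMI. Those of cluster 16 rest on 8 AptCD4-LNT cells and 13 Untreated cells with an Inhba UMI.

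Inhba was also lower in neutrophil-like and pericyte-like cells, and in the T and NK-like cells that served as background above. Neutrophil-like cells had 38.4 CPM in the AptCD4-LNT library and 105 CPM in the Untreated library, 2.75-fold lower (2.23 to 3.41). That log2 ratio of -1.46 was -0.71 with no doublets removed, -0.85 with doublets removed at the expected rate and -0.92 under a stricter cell filter. Their 2 clusters were unevenly filled, and within them Inhba stood at 28.5 CPM in AptCD4-LNT cells and 49.4 CPM in Untreated cells of cluster 8, and at 78.6 and 131 CPM in cluster 9. Pericyte-like cells had 69.8 CPM in the AptCD4-LNT library and 170 CPM in the Untreated library. Marker RNA of this class and of others also differed between the libraries, in both directions. The 7 pericyte markers summed to 8761 CPM in the AptCD4-LNT library and 3943 CPM in the Untreated library. The 7 fibroblast markers summed to 11269 and 7128 CPM. Like Inhba, the 7 epithelial markers were lower in the AptCD4-LNT library, at 563 and 1684 CPM (1 of 7 at 0 in each library). So were the 7 macrophage markers, at 65.1 and 366 CPM (1 of 7 at 0 in each library). The part of this marker RNA in the pericyte-like differences of Inhba, Tgfb1 and Tgfb3 was not tested. T and NK-like cells had 5 UMIs (8.26 CPM) in the AptCD4-LNT library and 41 UMIs (26.1 CPM) in the Untreated library, and the part of free RNA in that difference was not tested. Endothelial-like cells had the lowest Untreated level, 19.2 CPM from 18 UMIs, and 11 UMIs in the AptCD4-LNT library, with intervals that overlap.

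Fibroblast-like cells had the highest Inhba level of all classes in each library, 642 CPM (627 to 657) in the AptCD4-LNT library and 807 CPM (781 to 834) in the Untreated library. The class combined 2 unlike clusters. Cluster 17, led by Tagln, Tnc, Acta2 and Lrrc15, genes of contractile and matrix-forming fibroblasts, had 1988 CPM in AptCD4-LNT cells and 1474 CPM in Untreated cells. Cluster 6, led by Sfrp2, Dcn and Dpt, had 109 CPM in AptCD4-LNT cells and 29.2 CPM in Untreated cells. Inhba was thus higher within each cluster of the AptCD4-LNT library and lower over the class, of whose UMIs cluster 17 held 28.4% in the AptCD4-LNT library and 53.9% in the Untreated library. In cluster 6 the Inhba UMIs came from few cells: the tenth with most held 91.9% of them in the AptCD4-LNT library and 84.7% in the Untreated library. Thinned shares of cells with an Inhba UMI were 65.9% in AptCD4-LNT cells and 61.0% in Untreated cells in cluster 17, and 5.52% and 2.31% in cluster 6.

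Fst, the activin antagonist, was nearly confined to fibroblast-like cells in the AptCD4-LNT library, where they held 93.1% of its UMIs, against 66.4% in the Untreated library. Its level there was 359 CPM (348 to 370) in the AptCD4-LNT library and 198 CPM (185 to 212) in the Untreated library, a ratio of 1.81 (1.68 to 1.95). The difference lay mostly in cluster 6, with 375 CPM in AptCD4-LNT cells and 118 CPM in Untreated cells, while cluster 17 had 318 CPM and 266 CPM. Thinned shares of cells with an Fst UMI in cluster 6 were 26.0% in AptCD4-LNT cells and 11.5% in Untreated cells. In cluster 17 the thinned share was 15.2% in AptCD4-LNT cells and 22.0% in Untreated cells, against the order of the CPM, so no order is read there. Fst and Inhba UMIs were found together in 67.1% of the AptCD4-LNT cells and 52.6% of the Untreated cells of cluster 17 before thinning, and in 9.76% and 15.9% after it. T and NK-like cells gave an Fst background of 0 of 146 thinned AptCD4-LNT cells, which allows up to 2.05%, and 0 of 423 Untreated cells, which allows up to 0.709%. Epithelial-like cells were at 3.32 CPM in the AptCD4-LNT library and 3.59 CPM in the Untreated library, and they held 5.57% and 23.6% of Fst UMIs. The 11 Fst UMIs of AptCD4-LNT endothelial-like cells all came from 1 cell, and no ratio is given there.

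**Figure D3:**
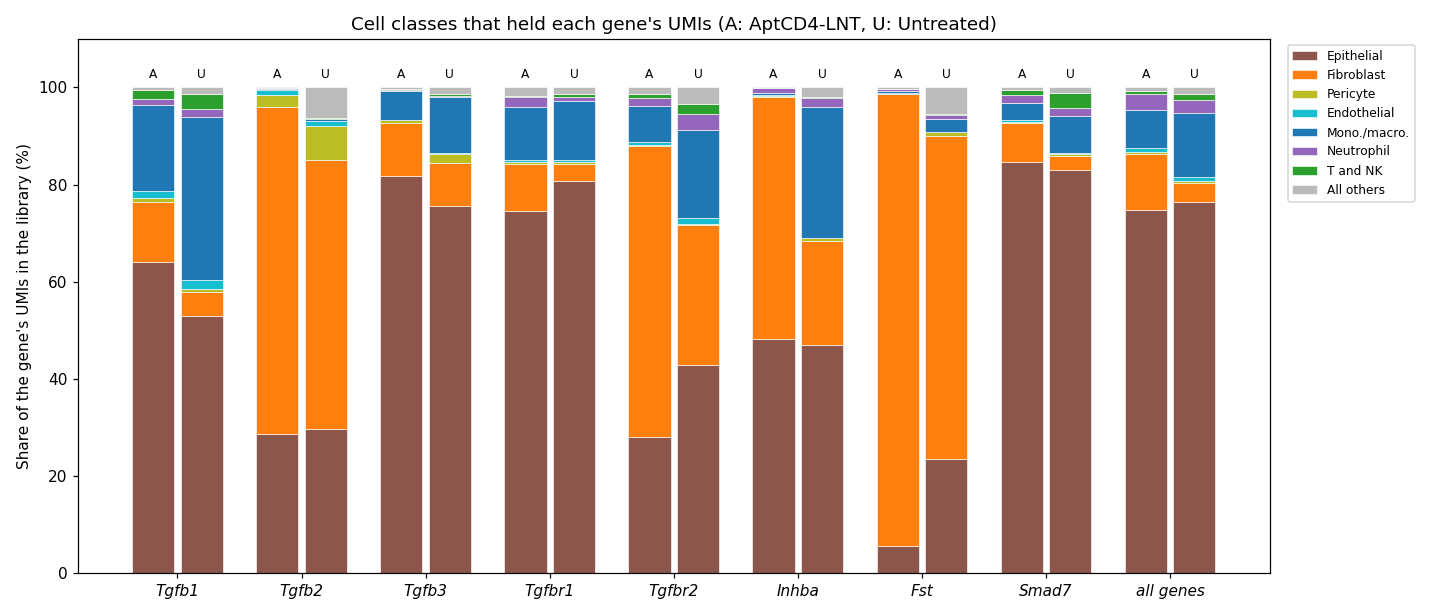
Share of each gene's UMIs held by each cell class, in percent of the library's UMIs of that gene, with all genes at the right for scale; the left bar of each pair is the AptCD4-LNT library and the right bar the Untreated library. The myeloid part of Inhba is 0.52% in the AptCD4-LNT library and 26.9% in the Untreated library, and Fst is held mainly by fibroblast-like cells in both.

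The TGF-beta ligand genes had different sources. Tgfb1 is the isoform of immune and blood vessel cells. Of the 7 compared classes, it was highest in T and NK-like cells of the AptCD4-LNT library (206 CPM). In the Untreated library it was highest in monocyte and macrophage-like cells (187 CPM). The T and NK-like, monocyte and macrophage-like, endothelial-like and pericyte-like levels lay between 144 and 206 CPM in the AptCD4-LNT library, each overlapping its neighbour's interval. Epithelial-like cells held 64.1% of Tgfb1 UMIs in the AptCD4-LNT library and 53.0% in the Untreated library, at the lower levels of 65.2 and 50.3 CPM, while monocyte and macrophage-like cells held 17.8% and 33.7%. Within that class Tgfb1 hardly differed, at 174 CPM (164 to 183) in the AptCD4-LNT library and 187 CPM (180 to 194) in the Untreated library. Neutrophil-like cells had 26.6 CPM in the AptCD4-LNT library and 45.7 CPM in the Untreated library, 1.72-fold lower (1.30 to 2.28). The log2 ratio of -0.78 no longer passed 1.5-fold with no doublets removed (-0.30), with doublets removed at the expected rate (-0.14), under a stricter cell filter (-0.57) or with classes from each cell's own markers (-0.51). Cluster 9 carried that difference, with 14.1 CPM in AptCD4-LNT cells and 54.0 CPM in Untreated cells, while cluster 8 had 29.7 and 27.5 CPM. In pericyte-like cells Tgfb1 was 1.52-fold higher (1.02 to 2.27), from 62 UMIs in the AptCD4-LNT library and 47 in the Untreated library.

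Tgfb2, an isoform of mesenchymal cells, had its highest levels in fibroblast-like cells (118 CPM in the AptCD4-LNT library and 108 CPM in the Untreated library) and pericyte-like cells (112 and 121 CPM), whose intervals overlapped in both libraries. Within fibroblast-like cells it was higher in each AptCD4-LNT cluster: 239 CPM in AptCD4-LNT cells and 174 CPM in Untreated cells of cluster 17, and 70.0 and 31.7 CPM in cluster 6. In epithelial-like cells it was low, with 554 UMIs (7.80 CPM) in the AptCD4-LNT library and 254 UMIs (2.96 CPM) in the Untreated library, 2.63-fold higher (2.27 to 3.07). The 8 epithelial-like clusters were unevenly filled, and Tgfb2 was less than 2-fold higher in clusters 2, 5, 11 and 12, with 7.02 CPM in AptCD4-LNT cells and 4.22 CPM in Untreated cells of cluster 2 and 4.45 and 3.50 CPM, with overlapping intervals, in cluster 5. In cluster 0 it had 7.49 CPM in AptCD4-LNT cells and 2.36 CPM in Untreated cells. Fibroblast marker RNA moved the same way in these cells, with the 7 markers summing to 250 CPM in the AptCD4-LNT library and 99.0 CPM in the Untreated library. Per 1000 fibroblast marker UMIs, epithelial-like cells had 31.2 Tgfb2 UMIs in the AptCD4-LNT library and 29.9 in the Untreated library, against 1.41 and 1.61 in fibroblast-like cells. The part of fibroblast marker RNA in the epithelial-like Tgfb2 difference was not tested. In endothelial-like cells Tgfb2 had 18 UMIs in the AptCD4-LNT library and 9 in the Untreated library, and fibroblast marker RNA there was 2535 CPM and 99.1 CPM, with none of the 7 markers at 0 in the AptCD4-LNT library and 1 at 0 in the Untreated library. Its part in the endothelial-like difference was not tested. Monocyte and macrophage-like and neutrophil-like cells had at most 4 Tgfb2 UMIs in either library.

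Tgfb3, the remaining isoform, was lower in the AptCD4-LNT mesenchymal classes. Fibroblast-like cells had 29.5 CPM (26.4 to 32.9) in the AptCD4-LNT library and 58.7 CPM (51.7 to 66.3) in the Untreated library, and both clusters shared the direction, with 19.1 and 37.6 CPM in cluster 6 and 55.8 and 76.7 CPM in cluster 17. Pericyte-like cells had 23 UMIs (53.5 CPM) in the AptCD4-LNT library and 53 UMIs (107 CPM) in the Untreated library. Epithelial-like cells, which held 81.7% of Tgfb3 UMIs in the AptCD4-LNT library and 75.6% in the Untreated library, had 34.1 and 25.4 CPM. Fewer than 20 UMIs were seen in endothelial-like, neutrophil-like and T and NK-like cells.

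Among the receptors, Tgfbr2 had its highest level of the 7 compared classes in fibroblast-like cells. They had 746 CPM (730 to 763) in the AptCD4-LNT library and 531 CPM (510 to 553) in the Untreated library. Osteoclast-like cells, too few for comparison, had 475 CPM (406 to 552) and 535 CPM (440 to 646). The order of Tgfbr2 across the fibroblast-like clusters was the reverse of Inhba's. Cluster 6 had 946 CPM in AptCD4-LNT cells and 835 CPM in Untreated cells, and cluster 17 had 243 and 272 CPM. Cluster 6 held 71.6% of the class's UMIs in the AptCD4-LNT library and 46.1% in the Untreated library. The next levels of the 7 classes were in T and NK-like cells (152 CPM in the AptCD4-LNT library and 113 CPM in the Untreated library), endothelial-like cells (147 and 98.0 CPM) and monocyte and macrophage-like cells (136 and 100.6 CPM). Their intervals overlapped in each library. Epithelial-like cells had the lowest Tgfbr2 level of the 7 classes, 54.2 CPM in the AptCD4-LNT library and 40.3 CPM in the Untreated library. Of the T and NK-like cells, 12.3% in the AptCD4-LNT library and 9.69% in the Untreated library had a Tgfbr2 UMI after thinning, and 30.5% and 24.2% before it. No class reached 1.5-fold in a direction with an interval that left out a ratio of 1 for this gene.

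Tgfbr1, the kinase that Tgfbr2 activates, had 87.4 CPM (80.8 to 94.4) in monocyte and macrophage-like cells of the AptCD4-LNT library and 45.6 CPM (42.2 to 49.2) in those of the Untreated library, a ratio of 1.92 (1.72 to 2.14). Cluster 10, mostly of AptCD4-LNT cells, had 115 CPM in AptCD4-LNT cells and 28.3 CPM, from 6 UMIs, in Untreated cells. In the shared clusters the levels were 60.1 CPM in AptCD4-LNT cells and 49.3 CPM in Untreated cells (cluster 13) and 37.5 and 28.1 CPM (cluster 16), with overlapping intervals, and the log2 ratio was 0.24 in place of 0.94 without clusters of mostly 1 library. Neutrophil-like cells had 35.0 CPM in the AptCD4-LNT library and 18.8 CPM in the Untreated library, a direction that turned round, to a log2 ratio of -0.15, with no doublets removed and, to -0.42, under a stricter cell filter. Osteoclast-like cells, 23 in the AptCD4-LNT library and 29 in the Untreated library and so too few for comparison, had 235 and 98.2 CPM of Tgfbr1 and 475 and 535 CPM of Tgfbr2.

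**Figure D4:**
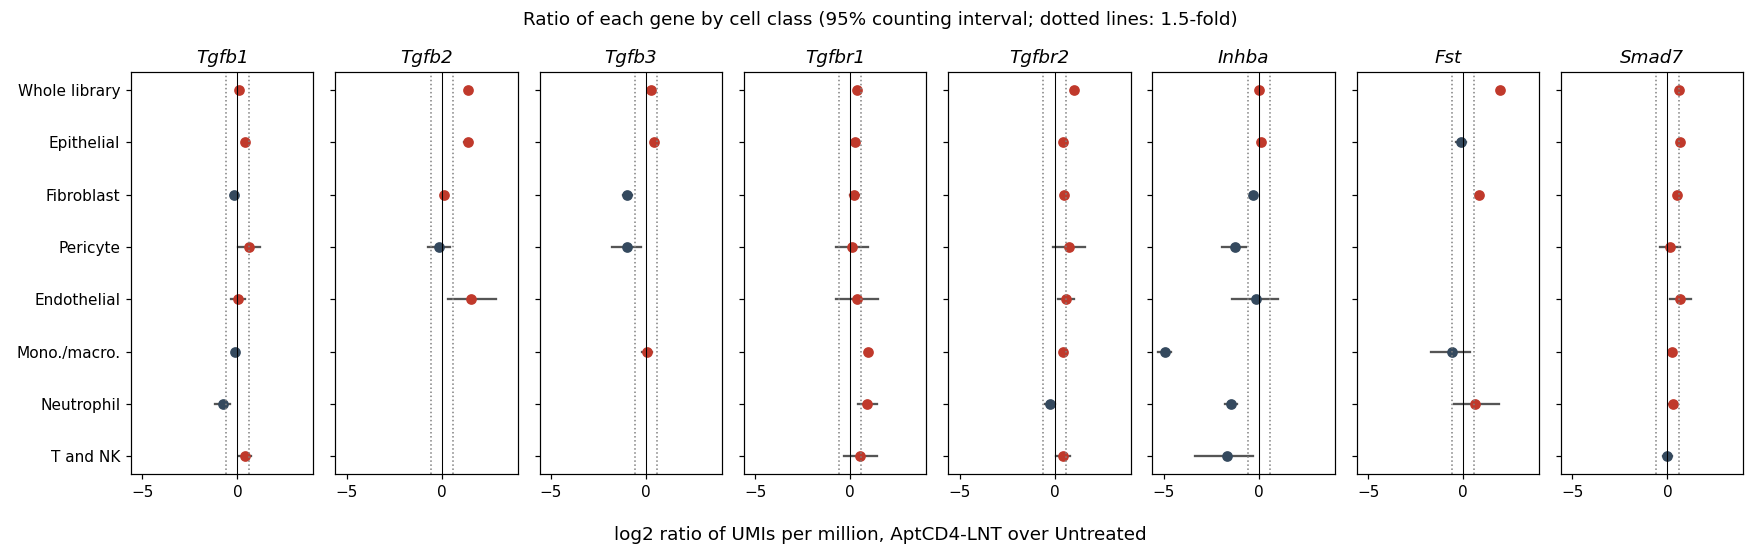
Log2 ratio of CPM, AptCD4-LNT over Untreated, for each gene in the whole library and in 7 cell classes, with 95% counting intervals; dotted lines mark 1.5-fold, and pairs with fewer than 20 UMIs are left out. Inhba in monocyte and macrophage-like cells lies at -4.94, and Fst over whole libraries at 1.94.

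Smad7, the inhibitory SMAD that the pathway induces, had its highest level in T and NK-like cells, with 337 CPM (292 to 387) in the AptCD4-LNT library and 339 CPM (311 to 369) in the Untreated library, intervals that overlap almost wholly. Epithelial-like cells held most of its UMIs, 84.6% in the AptCD4-LNT library and 83.0% in the Untreated library. Their level was 261 CPM (257 to 265) in the AptCD4-LNT library and 167 CPM (164 to 170) in the Untreated library, a ratio of 1.56 (1.53 to 1.60). Cluster 2, led by Lgals7, Bdnf and Lif, held 37.9% of the epithelial-like cells in the AptCD4-LNT library and 6.93% in the Untreated library, and had the highest Smad7 level of these clusters, 310 CPM in AptCD4-LNT cells and 236 CPM in Untreated cells. Clusters 3, 11 and 12 each held 8.59% to 9.22% of the class in the AptCD4-LNT library and 20.1% to 23.2% in the Untreated library. Smad7 was higher in the AptCD4-LNT cells of all 8 clusters, by 1.20-fold in cluster 11 to 1.81-fold in cluster 19, and 1.5-fold was reached in clusters 5, 12 and 19 but not in clusters 0, 1, 2, 3 and 11. Fibroblast-like cells had 162 CPM in the AptCD4-LNT library and 113 CPM in the Untreated library, and the contractile cluster 17 among them had 205 and 114 CPM. Both neutrophil-like clusters were higher in the AptCD4-LNT library, with 95.1 CPM in AptCD4-LNT cells and 50.5 CPM in Untreated cells of cluster 8 and 201 and 115 CPM in cluster 9, although the class stood at 116 and 95.2 CPM. Endothelial-like cells had 92.7 CPM in the AptCD4-LNT library and 58.6 CPM in the Untreated library, a log2 ratio of 0.66 that was -0.18 when each cell was weighted equally. The 12 immediate early genes, which respond to stress during tissue handling as well as to signals, moved with Smad7 in epithelial-like cells: 9 of 12 were 1.5-fold higher in the AptCD4-LNT library, with a median log2 ratio of 0.65. Their part in the Smad7 difference was not tested.

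Counted over the 7 classes, 47 of 56 pairs of a member and a class had at least 20 UMIs, and 10 of these were at least 1.5-fold higher and 8 at least 1.5-fold lower in the AptCD4-LNT library. For 15 of the 18, the counting interval left out a ratio of 1. In epithelial-like cells 2 of 8 measured members were higher and 0 lower, against 9.88% and 6.62% of all measured genes of the class. In fibroblast-like cells 1 of 8 was higher and 1 lower, against 10.9% and 13.3%, and in pericyte-like cells 2 of 7 were higher and 2 lower, against 18.5% and 14.2%. In endothelial-like cells 2 of 6 were higher and 0 lower, against 9.83% and 11.5%. In monocyte and macrophage-like cells 1 of 7 was higher and 2 lower, against 19.1% and 8.23%, in neutrophil-like cells 2 of 6 were higher and 2 lower, against 27.5% and 7.89%, and in T and NK-like cells 0 of 5 were higher and 1 lower, against 18% and 11.6%. With so few members per class, these shares do not set the members apart from other genes. The median log2 ratio of all genes with at least 100 UMIs was 0.22 for neutrophil-like and 0.19 for monocyte and macrophage-like cells, and within 0.1 of 0 elsewhere. Inhba had log2 ratios of -1.46 in neutrophil-like cells and -4.94 in monocyte and macrophage-like cells.

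Other genes of the pathway were read class by class, and their counts are to be read beside the class shares of all measured genes given above. In fibroblast-like cells, Ccn2, a matrix growth factor gene that TGF-beta induces, had 422 CPM in the AptCD4-LNT library and 917 CPM in the Untreated library. Of 15 measured target genes there, 2 were 1.5-fold higher and 5 lower, with a median log2 ratio of -0.44, against -0.02 over all measured genes. Both clusters were not alike in size between libraries, but cluster 6 alone had 241 CPM of Ccn2 in AptCD4-LNT cells and 472 CPM in Untreated cells. Lrrc32, which holds latent TGF-beta at the cell surface, had 118 CPM in the AptCD4-LNT library and 64.2 CPM in the Untreated library, and the co-receptor gene Tgfbr3 had 273 and 173 CPM. Ltbp2, of the latent TGF-beta binding protein family, had 77.7 and 124 CPM. Of 12 latency and activation genes 1 was higher and 2 lower, with a median of -0.29.

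In monocyte and macrophage-like cells, 3 of 10 latency and activation genes were 1.5-fold higher and 2 lower. Over all measured genes of the class, 19.1% were higher and 8.23% lower. Nrros, which anchors latent TGF-beta on myeloid cells, had 124 CPM in the AptCD4-LNT library and 70.5 CPM in the Untreated library, and Thbs1, an activator of latent TGF-beta, had 175 and 311 CPM. Skil, a transcriptional repressor of the pathway, had 274 and 145 CPM. Of the 14 target genes 6 were higher and 3 lower, with a median log2 ratio of -0.10. Id3 had 128 and 60.5 CPM while Id1 had 19.4 and 38.3 CPM. Postn and Mmp2 were among the higher genes of these lists. Fibroblast marker RNA was higher too, the 7 markers summing to 427 CPM in the AptCD4-LNT library and 109 CPM in the Untreated library. So were 9 of 12 immediate early genes, with a median log2 ratio of 0.85. The class was also made up of different clusters. Cluster 10 held 55.3% of its UMIs in the AptCD4-LNT library and 1.45% in the Untreated library. Cluster 15 held 1.83% and 20.7%, and cluster 23 held 2.13% and 55.9%. The part of marker RNA, immediate early genes and cluster make-up in the monocyte and macrophage-like differences was not tested. In T and NK-like cells, 4 of 5 SMAD genes were 1.5-fold higher in the AptCD4-LNT library, from 24 to 77 UMIs each in the Untreated library for the 3 named here: Smad1 with 43.0 CPM in the AptCD4-LNT library and 15.3 in the Untreated library, Smad3 with 46.3 and 24.2, and Smad4 with 79.3 and 49.0. Furin, which cleaves the TGF-beta precursor, had 396 CPM in the AptCD4-LNT library and 93.6 CPM in the Untreated library. The immediate early genes were higher there too, 10 of 12, with a median log2 ratio of 1.26, and so were the 6 mast and basophil markers, which summed to 441 CPM (5 of 6 at 20 CPM or more, none at 0) in the AptCD4-LNT library and 18.5 CPM (0 of 6, with 2 at 0) in the Untreated library. The 10 T and NK markers summed to 4348 CPM in the AptCD4-LNT library and 6536 CPM in the Untreated library. The part of these genes in the T and NK-like differences was not tested.

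In epithelial-like cells, 4 of 14 target genes were 1.5-fold higher and 1 lower, with a median log2 ratio of 0.47. None of 11 negative regulators passed 1.5-fold there, and Pmepa1, the most abundant of them, had 767 CPM in the AptCD4-LNT library and 677 CPM in the Untreated library. In endothelial-like cells, 6 of 14 target genes were higher and 2 lower, with Ccn2 at 388 CPM in the AptCD4-LNT library and 152 CPM in the Untreated library and Id1 at 253 and 448 CPM. The fibroblast marker RNA given above for these cells also accompanies these values.

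Across the 7 classes, the genes whose log2(CPM + 1) pattern was most like a member's, by the smaller of the Pearson correlations in each library among 13508 genes, are given as a description. For Fst they were Ogn, Cacna1g and Gm6093, with r of 0.956, 0.958 and 0.956 in the AptCD4-LNT library and 0.960, 0.950 and 0.945 in the Untreated library. For Tgfb2 they were Ntn4, Map1a and Lamb2, for Tgfbr2 Clmp, Gfra2 and Plagl1, and for Tgfb1 Lactb, Marchf2 and Ap2s1. For Inhba they were C1ra, C1rb and Cd63, with lower values between 0.791 and 0.869. Itgb5 was among the 3 for both Tgfb3 and Tgfbr1, and Acsbg1, Srgap3 and Pde7a were those for Smad7. The 7 classes of a library share depth and free RNA, so these values are not independent.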

How the data were processed

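The deposited matrices hold counts, that is UMI counts per gene and barcode, per the file headers, made with Cell Ranger 7.2.0 on GRCm39 per the submitters' processing notes. No columns of other series were present. Barcodes under 200 genes or over 20% mitochondrial UMIs were left out, 78 of the AptCD4-LNT library and 39 Untreated ones. Scrublet at its automatic threshold then removed 226 AptCD4-LNT cells (2.55%, expected 7.14%) and 1785 Untreated cells (8.92%, expected 16.0%). The libraries were clustered together in scanpy 1.11.5 and igraph 0.11.9 (2000 variable genes without the 8 members, 30 principal components, 15 neighbours, Leiden resolution 1, no integration). Clusters were named from marker lists if at least 3 markers reached 20 CPM. The score behind the names, the joining of monocyte with macrophage clusters and the need for 3 markers in each library were settled after the clusters were seen. The 8 members and the gene lists were chosen with earlier results of these data known.

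UMIs were summed per class and library in Python 3.11.15 with numpy 2.4.6, scipy 1.17.1 and pandas 2.3.3. Levels have exact Poisson intervals, ratios exact conditional binomial intervals and shares exact Clopper-Pearson intervals, at 95%, and a count of 0 allows 3. With 1 library per group no test was run. UMIs per cell are not independent samples of a condition. The ratio calculation was tested on simulated data. All 8 members are named where they have 20 UMIs; of each pathway list and class, at most the 3 genes with the largest ratio past 1.5-fold and 50 UMIs and the most abundant gene are named. A gene that meets this rule is not reported here.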

Additional observations from a re-analysis of the deposited data

Results flagged for a closer look

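Tgfb1 moved in opposite directions in neutrophil-like and pericyte-like cells. Its log2 ratio, AptCD4-LNT over Untreated, was -0.78 in neutrophil-like cells and 0.60 in pericyte-like cells, past 1.5-fold on both sides with counting intervals that leave out 0. The pericyte-like value rests on 62 UMIs in the AptCD4-LNT library and 47 in the Untreated library. Thinned to 1000 UMIs, 14.0% of AptCD4-LNT and 5.81% of Untreated pericyte-like cells had a Tgfb1 UMI, with overlapping intervals. Thinned to 2000 UMIs, the shares were close, at 22.0% and 21.2%. The difference between the classes was not tested, since each group has 1 library. The neutrophil-like value ranged from -1.002 to -0.14 over 9 alternatives, and the pericyte-like value from 0.55 to 1.18 over 6.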

How the results depend on the processing

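No paired analysis was possible because each group has 1 library. With the class shares of the Untreated library applied to both, whole-library log2 ratios were 0.17 for Tgfb1, 0.59 for Tgfb2, 0.41 for Tgfbr2, -0.53 for Inhba and 0.60 for Fst. With cells weighted equally they were -0.14 for Tgfb1, 1.11 for Tgfb2, 0.12 for Tgfb3, 0.79 for Tgfbr2, -0.79 for Inhba and 0.33 for Smad7. Centred on the median ratio they were -0.0063 for Tgfb1, 0.25 for Tgfbr1, 0.93 for Tgfbr2, -0.056 for Inhba and 0.51 for Smad7. Fst was 1.81 with no doublets removed and 1.79 under the stricter cell filter. Against 10 member and class pairs higher and 8 lower, 2 were higher and 5 lower at 2-fold, 4 were lower with doublets removed at the expected rate, and 4 were lower with classes from each cell's own markers. Smad7 in endothelial-like cells reversed to -0.18 with cells weighted equally, and Tgfbr1 in neutrophil-like cells to -0.15 with no doublets removed and -0.42 under the stricter cell filter; the cause was not tested. Of 15 pairs past 1.5-fold with an interval leaving out 1, 13 kept their direction under every alternative run. Inhba in monocyte and macrophage-like cells ranged from -5.24 to -3.29. Leaving out clusters of mostly 1 library was chosen after seeing the data. Pericyte-like cells gave no value with doublets removed at the expected rate, under the stricter filter or by own markers, for want of 50 cells per library. Depth limits the small classes, where pairs with a ratio had as few as 5 UMIs in a library.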
